A study of Rattus norvegicus with 14 samples.

Results

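The red blood cell genes Alas2, Hbb, Slc4a1, Ahsp and Epb42 were followed in the choroid plexus (CP) of rats after gonadectomy. They are 5 of the 15154 genes that could be named on the arrays, and they were chosen by name: a probe was taken as a member when its transcript accession belonged to one of these symbols, and the probe with the highest mean signal was read for each gene. The CP of the lateral ventricles was taken from Wistar rats operated at 2 months of age and sampled 2 weeks after surgery, with a pool of RNA from 3 animals on each 1-colour array. The groups were ovariectomized (OVX) females in 3 pools, sham-operated females in 3 pools, orchidectomized (OOX) males in 4 pools and sham-operated males in 4 pools. The methods speak of 3 pools per group and do not say whether an animal entered more than 1 pool. The study's hormone measurements cover fewer animals in a group than would be needed for every pool to hold 3 different ones. Whether the pools drew only on those animals is not stated. The p-values measure the spread between these pools, which may not be independent. Neither the labels nor the methods mention perfusion of the vessels.

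Red blood cells are made in the bone marrow from erythroblasts, which fill with haemoglobin and then, in mammals, lose the nucleus. Reticulocytes, the youngest cells in the circulation, still carry messenger RNA for haemoglobin and for the proteins of the red cell membrane. The CP is a richly vascularized tissue, so blood in its capillaries contributes RNA to any extract of it. Alas2 encodes the erythroid form of 5-aminolevulinate synthase, the first enzyme of haem synthesis. Hbb encodes a beta chain of haemoglobin, and Ahsp encodes the chaperone that holds free alpha globin. Slc4a1 encodes band 3, the anion exchanger of the red cell membrane, and Epb42 encodes protein 4.2, which binds band 3 to the skeleton beneath it.

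The bases before the gene start are shown for Hbb and Epb42, since their transcripts are followed side by side below and 3 of the 5 members had a window in the RefSeq table used here; the window listed for Alas2 lies within the annotated gene and is not shown. The sequences are from RefSeq on GRCr8, a later build than the rn4 annotation of the arrays. Both genes lie on the minus strand, Hbb at chr1:167663722-167663971 and Epb42 at chr3:128451684-128451933, and capitals mark the motifs found. The motifs searched, on both strands, were the CACCC box CCACACCC, the CCAAT box, the GATA motif as AGATAA or as AGATAG, and the TATA box TATAAA.
Hbb: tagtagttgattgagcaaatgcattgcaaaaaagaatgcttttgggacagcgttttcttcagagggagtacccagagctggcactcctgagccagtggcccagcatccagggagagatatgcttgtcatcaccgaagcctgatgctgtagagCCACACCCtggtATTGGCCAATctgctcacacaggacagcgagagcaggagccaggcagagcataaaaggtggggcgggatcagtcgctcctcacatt
Epb42: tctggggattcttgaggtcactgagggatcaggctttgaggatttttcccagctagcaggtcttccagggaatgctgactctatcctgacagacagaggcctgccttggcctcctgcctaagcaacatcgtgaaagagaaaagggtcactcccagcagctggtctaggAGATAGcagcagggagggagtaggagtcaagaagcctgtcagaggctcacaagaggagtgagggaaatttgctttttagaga

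The Hbb window held CCACACCC, a CACCC box, 98 bases before the gene start. A CCAAT box followed on each strand, the reverse one 86 and the forward one 81 bases before the start, side by side without overlap. The Epb42 window held AGATAG, one form of the GATA motif, 82 bases before the start. Of the 33469 RefSeq windows of this length, 2.84% held CCACACCC, 34% held CCAAT and 7.73% held AGATAG in either orientation. A match of letters describes the window and is not a binding site.

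On each array the log2 signal of a probe was taken relative to the median of all probes of that array, so that 0 is the array median and a step of 1 is a doubling. The arrays held the CP epithelium: all 8 of its markers, among them Ttr and Folr1, were well above background on all 14 arrays. By the flag of the scanner software, 79.7% to 87.2% of the spots on an array were well above background. Arrays lay on 5 slides scanned on 2 days. All sham females and OVX pool 1 were scanned on day 1, and OVX pools 2 and 3 and all males on day 2.

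Alas2 was well above background and unsaturated on all 14 arrays. It read 3.84, 4.76 and 4.41 in OVX pools 1 to 3, against 3.55, 4.01 and 3.27 in sham female pools. It read 4.05, 4.12, 3.02 and 3.98 in OOX pools 1 to 4, against 4.49, 3.92, 3.12 and 4.47 in sham male pools. OVX pool 2 was the highest of all and OOX pool 3 the lowest, 3.33-fold apart, and the groups overlapped in both sexes.

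Slc4a1 was also measured on every array. It read 0.12, 0.62 and 0.65 in OVX pools, against -0.45, 0.13 and -1.02 in sham female pools. It read 0.16, -0.09, -0.81 and 0.10 in OOX pools, against 0.69, -0.12, -1.11 and 0.66 in sham male pools. Sham female pool 2 lay just above OVX pool 1, so the female groups overlapped, and sham male pools spanned the whole range of the data, 3.48-fold from pool 3 to pool 1.

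Hbb had a pair of probes. The brightest was saturated on all 14 arrays, so it has no fold. Its signal before scaling differed by only 0.061 on the log2 scale between the highest and the lowest array, while the array medians differed by 0.76. Divided by the array median, it therefore followed that median (Pearson r = -0.997 across arrays), and its values give no level of Hbb.

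**Figure D1:**
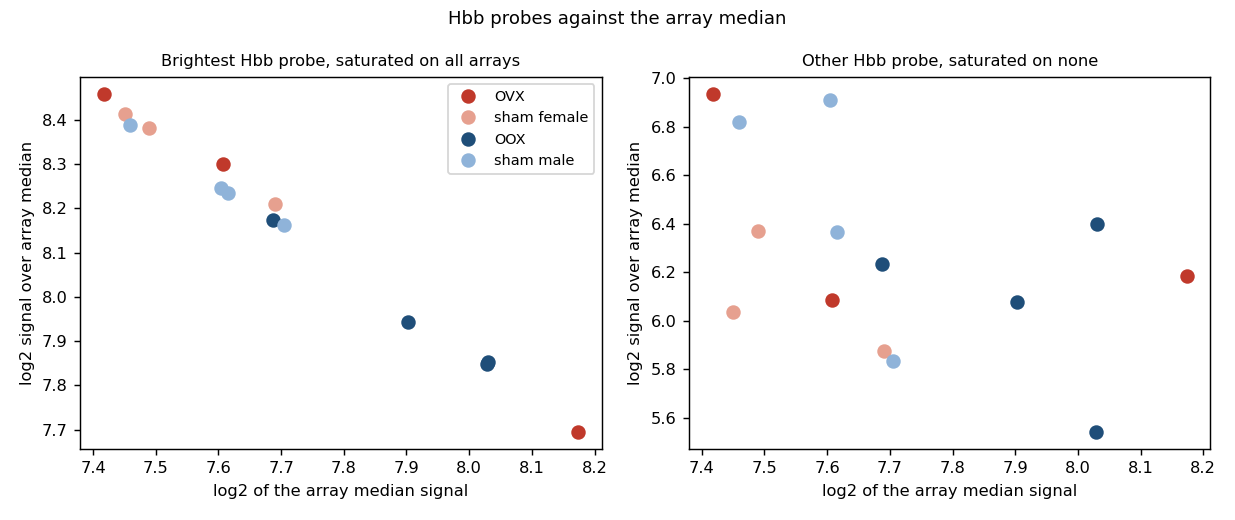
Log2 signal of each Hbb probe over the array median (vertical) against the log2 of that median (horizontal), 1 point per array, coloured by group. The saturated probe on the left falls along a line, and the unsaturated probe on the right scatters (r = -0.47).

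The other Hbb probe was well above background on every array and saturated on none, and Hbb is described by it from here on. It read 6.09, 6.93 and 6.18 in OVX pools, against 6.03, 6.37 and 5.87 in sham female pools. It read 6.23, 6.40, 5.54 and 6.08 in OOX pools, against 6.91, 6.37, 5.84 and 6.82 in sham male pools. The order of pools resembled that of Alas2, with OVX pool 2 highest and OOX pool 3 lowest. The rat has several beta globin genes of closely related sequence, and whether this probe also binds their transcripts was not tested.

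Ahsp read 3.66, 3.21 and 3.75 in OVX pools, against 3.03, 3.42 and 3.03 in sham female pools. It read 2.73, 2.95, 2.93 and 3.27 in OOX pools, against 3.51, 3.28, 2.45 and 3.52 in sham male pools. Its order of pools differed from that of the other members: OVX pool 2, the highest for Alas2, was the lowest OVX pool for Ahsp. A further Ahsp probe gave the same picture, with 2.92, 2.55 and 3.07 in OVX pools, against 2.25, 2.57 and 2.28 in sham female pools. That probe read 2.20, 2.24, 2.28 and 2.31 in OOX pools, against 2.79, 2.49, 1.73 and 2.78 in sham male pools, and the probes followed each other across arrays (r = 0.96).

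Epb42 was dim, well above background on 7 of 14 arrays: 3 of 3 OVX, 0 of 3 sham female, 2 of 4 OOX and 2 of 4 sham male arrays. It read -4.16, -3.23 and -3.24 in OVX pools, against -4.45, -4.18 and -4.53 in sham female pools. It read -4.45, -3.62, -4.47 and -4.07 in OOX pools, against -3.74, -4.95, -4.35 and -3.66 in sham male pools. None of the sham female values was well above background. On sham female arrays 1 and 3 the lowest signal that counted as well above background, -3.82 and -3.78, was higher than the value of OVX pool 1, so an order of OVX pool 1 and the sham female pools was not measured.

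**Figure D2:**
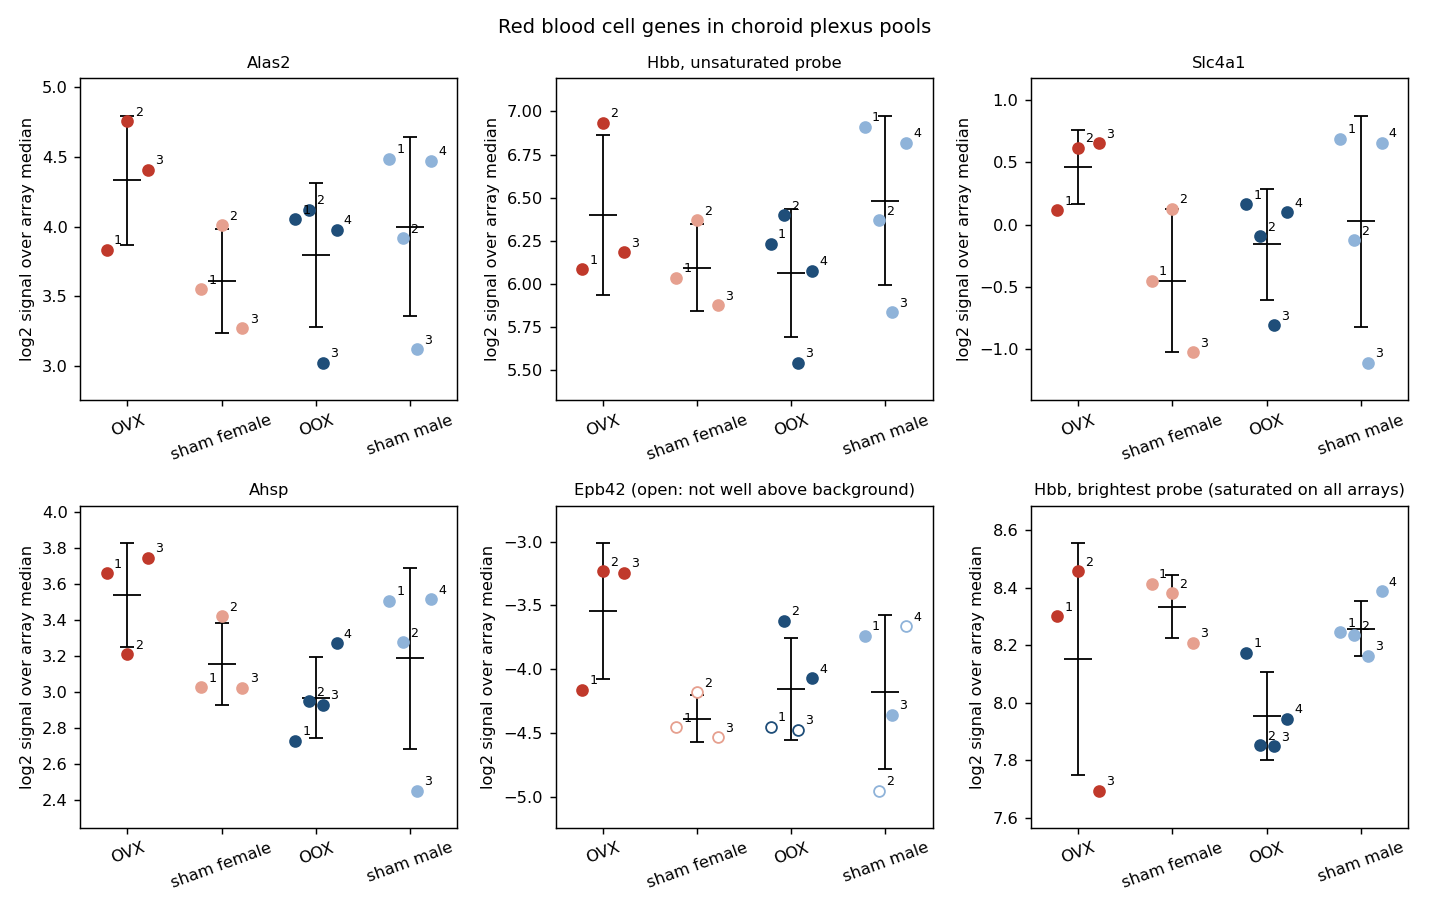
Log2 signal over the array median of each member, with 1 point per pool labelled by replicate number, and bars for the group mean and SD (n = 3 in female and 4 in male groups); open points were not well above background. In Alas2, Slc4a1 and the unsaturated Hbb probe, pool 3 is the lowest of the OOX and sham male groups.

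After ovariectomy no member passed the threshold (limma, Benjamini-Hochberg adjusted p under 0.05), where 7.2% of all 27517 genes and unnamed probes did. Alas2 averaged 4.33 ± 0.46 in OVX pools and 3.61 ± 0.37 in sham female pools (SD, n = 3 each), a log2 difference of 0.72 (95% interval 0.014 to 1.43, limma adjusted p = 0.215). Slc4a1 averaged 0.46 ± 0.30 in OVX pools and -0.45 ± 0.58 in sham female pools, a difference of 0.91 (0.15 to 1.67, limma adjusted p = 0.153). All 5 members were above 0 in this comparison, as were 45.2% of all features, but the members come from the same RNA and do not count as separate evidence.

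Hbb averaged 6.40 ± 0.46 in OVX pools and 6.09 ± 0.25 in sham female pools, a difference of 0.31 (-0.33 to 0.95, limma adjusted p = 0.545), which was 0.041 without OVX pool 2. Ahsp averaged 3.54 ± 0.29 in OVX pools and 3.16 ± 0.23 in sham female pools, a difference of 0.38 (-0.10 to 0.86, limma adjusted p = 0.324), and its other probe gave 0.48 (0.041 to 0.92, limma adjusted p = 0.187). Epb42 averaged -3.54 ± 0.53 in OVX pools and -4.39 ± 0.18 in sham female pools. No sham female array measured Epb42 well above background, so its difference is a bound on the group means. With the background correction used here, the OVX mean was at least 1.30-fold higher. OVX pool 1 lay below the sham female mean of the bound, -3.93. For the bound each sham female array was set at its lowest signal that counted as well above background, or at its own value where higher. The measured values gave a 95% interval of 0.17 to 1.52 for the log2 difference (limma adjusted p = 0.137). The bound rests on the background correction. The difference of the measured means was 0.84, but 0.45 with quantile normalization and 0.065 with normexp background correction (limma adjusted p = 0.956).

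Without adjustment, 3 of the 5 members (Alas2, Slc4a1 and Epb42) had a limma p under 0.05 in females, beside 22.3% of all features. The methods' t-test gave 0 of 5 at that level, beside 20.1% of all features. None of the 3 kept a limma p under 0.05 without sham female pool 1 or 3 or without OVX pool 2 or 3. Within scan day 1, the single OVX pool differed from the mean of the 3 sham female pools by 0.22 in Alas2, 0.57 in Slc4a1, -0.0077 in Hbb and 0.50 in Ahsp. A fit with scan day as a block gave the same differences, and the unadjusted limma p was then 0.529 for Alas2, 0.250 for Slc4a1 and 0.317 for Epb42. On slide 2, which held OVX pool 1 and sham female pool 3, the differences were 0.56, 1.14, 0.21 and 0.63 in the same order of genes. The slide as a block gave unadjusted limma p of 0.200 for Alas2, 0.060 for Slc4a1 and 0.277 for Epb42.

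After orchidectomy no member was called, where 0.0618% of features were, and the 95% interval of each member included 0. Of the 5 members 4 were below 0, as were 48.7% of all features. Alas2 averaged 3.79 ± 0.52 in OOX pools and 4.0 ± 0.64 in sham male pools (SD, n = 4 each), a log2 difference of -0.20 (-1.03 to 0.62, limma adjusted p = 0.959). Slc4a1 averaged -0.16 ± 0.45 in OOX pools and 0.029 ± 0.85 in sham male pools, a difference of -0.19 (-1.13 to 0.76, limma adjusted p = 0.960). Hbb averaged 6.06 ± 0.37 in OOX pools and 6.48 ± 0.49 in sham male pools, a difference of -0.42 (-1.06 to 0.22, limma adjusted p = 0.828).

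Ahsp averaged 2.97 ± 0.22 in OOX pools and 3.19 ± 0.50 in sham male pools, a difference of -0.22 (-0.80 to 0.36, limma adjusted p = 0.949). Epb42 averaged -4.15 ± 0.40 in OOX pools and -4.17 ± 0.60 in sham male pools, a difference of 0.023 (-0.71 to 0.76, limma adjusted p = 0.991). By limma and by the methods' t-test alike, 0 of 5 members had an unadjusted p under 0.05, beside 7.69% of all features by limma and 8.1% by the methods' t-test. On slide 3, OOX pool 4 differed from the mean of sham male pools 1 and 2 by -0.22 in Alas2, -0.18 in Slc4a1, -0.56 in Hbb and -0.12 in Ahsp.

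**Figure D3:**
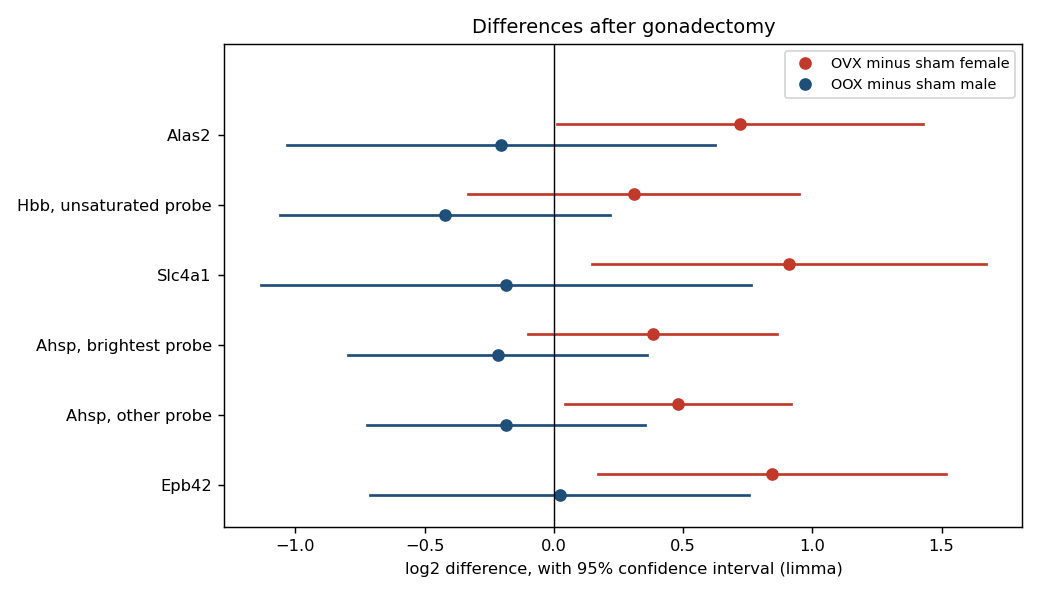
Log2 difference of each member between gonadectomized and sham pools (points) with its 95% interval from limma (lines), females in red and males in blue. The female points lie between 0.31 and 0.91 and the male points between -0.42 and 0.023, none passing after adjustment. For Epb42 the sham female values behind the point were not well above background.

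The male effect minus the female effect was below 0 for each of the 5 members, from -0.60 in Ahsp to -1.10 in Slc4a1, and was called for none (limma adjusted p from 0.517 to 0.573), where 0.229% of features were called and 46.4% lay below 0. By limma 0 of 5 had an unadjusted p under 0.05 here, beside 11.7% of all features. An effect of ovariectomy that differs from that of orchidectomy was therefore not shown for any of them.

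The order of the group means was alike for Alas2 and Slc4a1: OVX, sham male, OOX and sham female, from high to low. For Hbb it was sham male, OVX, sham female and OOX, and for Ahsp OVX, sham male, sham female and OOX. With these probes no neighbours in the orders differed by more than their pooled SD. By the other Ahsp probe, in the same order, OVX lay 0.403 above sham male, just over the pooled SD of 0.399, with overlapping values. For Epb42 no order is given, since 2 of 4 arrays in each male group and all sham female arrays were not well above background.

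Pools of the same group differed widely in these genes. The SD within groups was 0.53 for Alas2, 0.60 for Slc4a1, 0.41 for Hbb and 0.34 for Ahsp, beside a median of 0.23 over the 18993 features measured on every array without saturation. The SD of Alas2 exceeded 92.5% of those features, that of Slc4a1 94.4%, that of Hbb 87.1% and that of Ahsp 80.2%. Among features within 0.5 of the same mean signal, the SD of Alas2 exceeded 98.4%, that of Hbb 97.9%, that of Slc4a1 91.5% and that of Ahsp 89.1%. Differences between pools within groups made up 67.7% to 77.3% of the total sum of squares of these 4 genes. A gene whose groups do not differ is also expected to have most of its sum of squares within groups, since pools outnumber groups. The share was not compared with that of other features, so it does not by itself show a wide spread. In a pool, fewer red cells and less RNA per red cell cannot be told apart.

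The same pools were low or high for several members at once. Sham male pool 3 lay below the mean of its group by 0.88 in Alas2, 1.14 in Slc4a1, 0.65 in Hbb and 0.74 in Ahsp. OOX pool 3 lay below its group by 0.77 in Alas2, 0.65 in Slc4a1 and 0.52 in Hbb, but by only 0.040 in Ahsp. Sham male pools 1 and 4 lay above their group in all 5 members, by 0.32 to 0.66.

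**Figure D4:**
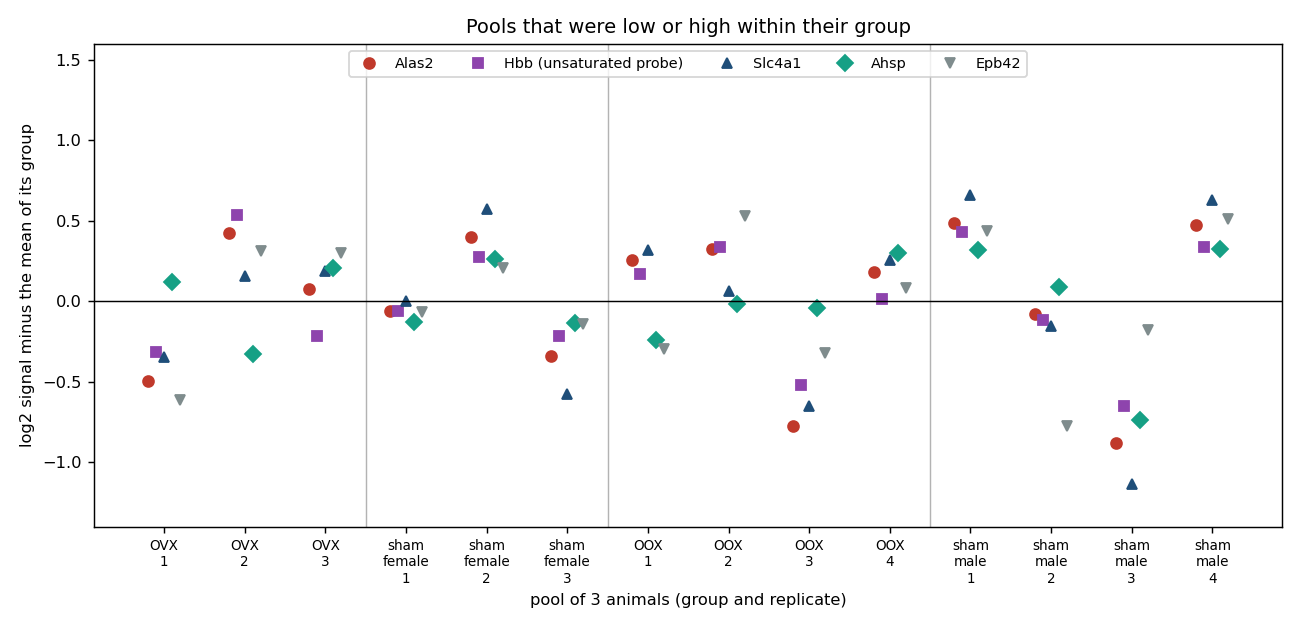
Log2 signal of each member minus the mean of its group (vertical) in each of the 14 pools (horizontal). In sham male pools 1 and 4 and in sham female pool 2 all 5 members lie above 0, and in pool 3 of the sham female, OOX and sham male groups all lie below it.

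Across the 14 pools Alas2 followed Slc4a1 (Pearson r = 0.96, permutation p = 1e-05, the smallest that 100000 permutations can give, adjusted 6e-05; Spearman rho = 0.90, permutation p = 8e-05, adjusted 0.00032). Alas2 followed Hbb as closely (r = 0.90, permutation p = 3e-05, adjusted 0.00012; rho = 0.92, permutation p = 1e-05, adjusted 6e-05). Hbb and Slc4a1 gave r = 0.81 (permutation p = 0.00058, adjusted 0.00174) and rho = 0.79 (permutation p = 0.00128, adjusted 0.00307). All permutation tests were two-sided and adjusted over 12 relations, the 10 pairs of members and the 2 pairs of probes.

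These 3 relations held in other cuts of the data. Centred on the group means, r was 0.94 for Alas2 with Slc4a1, 0.95 for Alas2 with Hbb and 0.85 for Hbb with Slc4a1. On the 10 arrays of scan day 2 the values were 0.96, 0.90 and 0.81. Without the 2 pools farthest from the median of the gene named first in the pair, they were 0.94, 0.86 and 0.76. Scan day 1 held 4 arrays, too few for a value.

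Ahsp and Epb42 followed the others more loosely. Ahsp gave r = 0.72 with Slc4a1 (permutation p = 0.00358, adjusted 0.00716; rho = 0.66, permutation p = 0.0123, adjusted 0.021) and r = 0.60 with Alas2 (permutation p = 0.0235, adjusted 0.0353). The rank correlation of Ahsp with Alas2, 0.48, did not pass (permutation p = 0.0873, adjusted 0.116). Without the 2 pools farthest from the median of Alas2 their r was 0.38, so the relation was weaker without those pools. On scan day 2 their r was 0.69. Ahsp with Hbb (r = 0.45, permutation p = 0.11, adjusted 0.11; rho = 0.43, adjusted 0.133) and with Epb42 (r = 0.45, permutation p = 0.106, adjusted 0.11; rho = 0.42, adjusted 0.133) did not pass.

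Epb42 gave r = 0.73 with Alas2 (permutation p = 0.00309, adjusted 0.00716), 0.69 with Slc4a1 (permutation p = 0.00711, adjusted 0.0122) and 0.58 with Hbb (permutation p = 0.0284, adjusted 0.0379). Without the 2 pools farthest from the median of the other gene these were 0.78, 0.71 and 0.40, so the Pearson value with Hbb was weaker without those pools. The rank correlations passed with Alas2 (rho = 0.79, permutation p = 0.00112, adjusted 0.00307), with Slc4a1 (rho = 0.69, permutation p = 0.00759, adjusted 0.0152) and with Hbb (rho = 0.63, permutation p = 0.0188, adjusted 0.0282). Centred on the group means, r with Hbb was 0.64. With 7 of 14 arrays well above background, its low values carry little order.

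**Figure D5:**
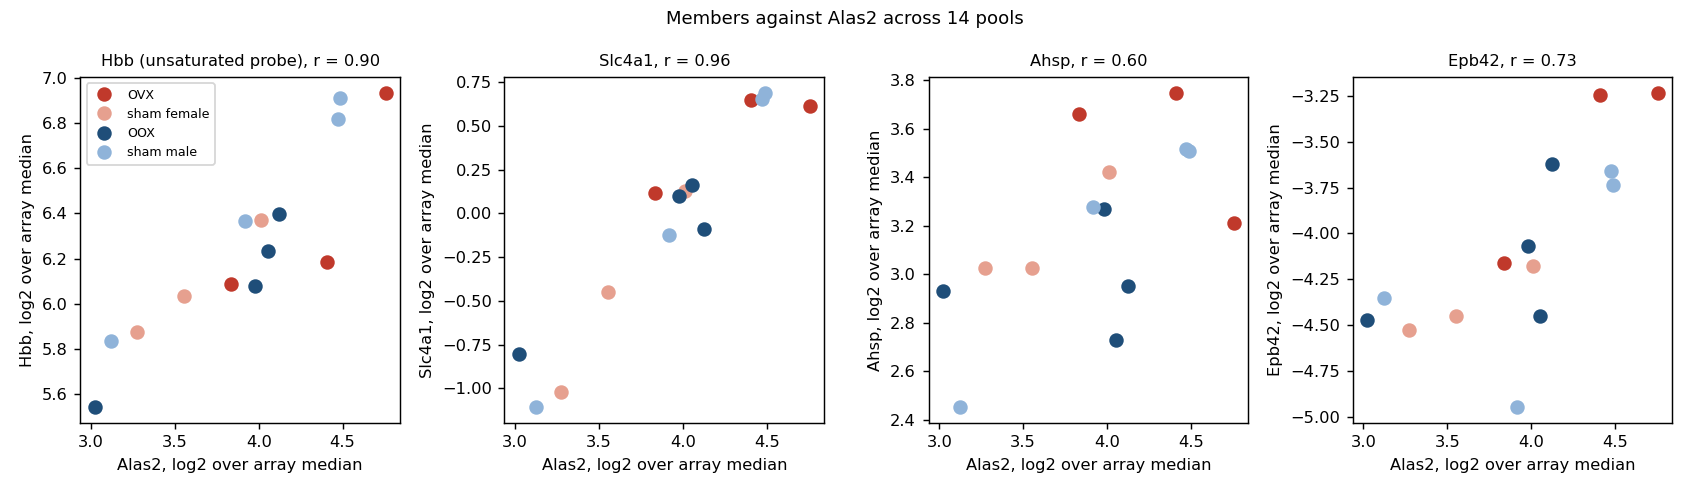
Log2 signal over the array median of Hbb (unsaturated probe), Slc4a1, Ahsp and Epb42 (vertical) against that of Alas2 (horizontal), 1 point per pool, coloured by group. Hbb and Slc4a1 rise with Alas2 across the pools, with r = 0.90 and 0.96.

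Other globins were read on 9 of 16 listed genes, Hbb included. Of these, 0 were called higher and 1 lower after ovariectomy, and none after orchidectomy, beside 2.73% of all features called higher and 4.47% called lower after ovariectomy. The one called was the embryonic Hbe1, which was well above background on no female array and has no fold. No median is given for the list, since the brightest probes of Hba-a1, Hbb-b1 and Hbe2 were, like that of Hbb, saturated on all 14 arrays. Hbb-bs was saturated on 2 of them.

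A further Hba-a1 probe, for the alpha chain, was saturated nowhere. It read 7.20, 7.34 and 7.28 in OVX pools, against 6.63, 7.24 and 6.79 in sham female pools (difference 0.39, limma adjusted p = 0.276). It read 7.11, 7.35, 6.14 and 7.0 in OOX pools, against 7.30, 6.89, 6.31 and 7.39 in sham male pools (difference -0.073, limma adjusted p = 0.976). Pools 3 of both male groups were again the lowest, and the probe followed Alas2 across pools with r = 0.91, a value computed outside the 12 relations above and given without a test.

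Of the other globins measured without saturation, Hba-a3 differed by 0.26 after ovariectomy and 0.032 after orchidectomy. Hbb-bs, the beta globin saturated on 2 arrays, differed by 0.24 and -0.11. The saturated arrays were those of OVX pool 3 and OOX pool 4, both on the operated side, and their readings are lower limits. The fetal and embryonic globins Hbg1 and Hbz differed by 0.41 and 0.70 after ovariectomy and by 0.24 and 0.39 after orchidectomy, none of them called.

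Of 17 measured genes of the red cell membrane and skeleton, members included, none was called in either sex. Over all features 7.2% were called after ovariectomy and 0.0618% after orchidectomy, shares that also stand beside the lists below. The median difference of the 17 genes was 0.17 after ovariectomy and 0.023 after orchidectomy, beside -0.042 and 0.0083 over all features. Kel, a blood group protein, and Add2, a skeleton protein, differed by 0.64 and 0.84 after ovariectomy and by -0.33 and 0.23 after orchidectomy.

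Among 18 genes of haem synthesis and mitochondrial iron, 1 was called higher and 0 lower after ovariectomy. Over all features 2.73% were called higher and 4.47% lower there. After orchidectomy none of the 18 was called, and the medians were -0.10 in both sexes. The one called was Slc25a37, mitoferrin, which carries iron into mitochondria. It read 1.44, 1.17 and 1.31 in OVX pools, against 0.54, 0.15 and 0.44 in sham female pools, a difference of 0.93 (limma adjusted p = 0.040). Its groups did not overlap, and 14.5% of all features tested were likewise higher in OVX pools without overlap. Between pools of a group its r with Alas2 was -0.39, given without a test. Its call was lost in 10 of 20 alternatives, among them the block for scan day (limma adjusted p = 0.238) and the block for slide (0.534), while the difference stayed between 0.805 and 1.07 in all 20. It was 1.07 within scan day 1 and 1.01 on slide 2. Alas1, the form of the first haem enzyme that all cells use, differed by -0.47 after ovariectomy (limma adjusted p = 0.089) and by -0.023 after orchidectomy, and Fech, which inserts the iron, by 0.032 and -0.34.

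None of 11 erythroid transcription factors and none of 15 red cell enzymes and maturation genes was called in either sex, with medians of 0.063 and 0.030 after ovariectomy and 0.11 and -0.023 after orchidectomy. Lmo2, a bridging factor also made in endothelium, differed by -0.77 after ovariectomy (limma adjusted p = 0.063) and 0.37 after orchidectomy. Ikzf1 and Nfe2 differed by 0.40 and 0.42 after ovariectomy and by 0.65 and 0.12 after orchidectomy. Epor, the erythropoietin receptor, differed by 0.60 after orchidectomy (limma adjusted p = 0.425). Trim10 differed by 0.56 after ovariectomy. Pklr, the red cell pyruvate kinase, was not well above background on any sham female array. With the background correction used here, its OVX mean was at least 1.30-fold higher by the same bound as Epb42. The measured values gave limma adjusted p = 0.129. The lowest OVX pool of Pklr, at -4.15, lay below the sham female mean of the bound, -3.96.

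Other blood cells were read beside the red cell genes. Of 8 platelet genes none was called, with medians of 0.46 after ovariectomy and -0.011 after orchidectomy. Of 9 neutrophil genes 1 was called lower after ovariectomy, beside 4.47% of all features, with medians of 0.56 and -0.44. The gene called was Mmp8, well above background on 1 array of 14, a sham male one. It was well above background on no female array, so its female difference has no fold. Of 8 lymphocyte genes none was called, with medians of 0.46 and 0.70. The signals of a list over the array median were also summed, which weighs its brightest genes most, and the log2 of the sum taken. For the neutrophil list this log2 ran from 1.11 to 1.98 in OVX pools and 0.36 to 1.49 in sham female pools. In males it ran from 0.25 to 1.82 in OOX pools and 0.53 to 3.26 in sham male pools. For the lymphocyte list it ran from 0.46 to 0.83 in OVX pools and 0.047 to 0.35 in sham female pools. In males it ran from 0.71 to 1.24 in OOX pools and -0.041 to 1.35 in sham male pools. Of the 8 lymphocyte genes, 2 were well above background on all arrays. Of 9 macrophage, 8 endothelial and 7 neuron genes none was called in either sex. Over all features, 45.2% lay above 0 after ovariectomy and 48.7% below 0 after orchidectomy. The neuron list had a median of -1.10 after ovariectomy, where 6 of 7 genes were below 0. After orchidectomy its median was 0.56, and 7 of 7 genes were above 0. The log2 of its summed signals ran from 2.13 to 3.98 in OVX pools and 2.70 to 5.32 in sham female pools. In males it ran from 2.34 to 4.8 in OOX pools and 1.44 to 5.81 in sham male pools. The groups overlapped in both sexes. The medians were -0.040 and 0.15 for macrophage genes and 0.021 and -0.17 for endothelial genes, after ovariectomy and orchidectomy in turn. None was called among the 8 CP epithelium markers, 4 of which were saturated on all arrays. The part of blood left in the vessels, or of other tissue in the samples, in any of these values was not tested.

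Over the 14 pools, 11118 named genes that were well above background and unsaturated on every array were ranked by their mean correlation with Alas2, Slc4a1, Ahsp and Epb42, centred on group means. Among the 8 most alike were Cdc25b (mean r = 0.75), Rnls (0.74), Cd52 (0.73), Hemgn (0.72), Akr7a3 (0.71), Fam163b (0.71) and Hbegf (0.70). Akr7a3 and Hbegf had their highest r with Epb42 (0.80 and 0.92), which was well above background on 7 of 14 arrays. Hbb was left out of the mean because its brightest probe was saturated. Cdc25b is a cell cycle phosphatase, Cd52 a surface glycoprotein of leukocytes and Hemgn a nuclear protein of blood precursors. Without centring, Cd52, Hemgn, Rnls and Cdc25b took the first 4 ranks, while Fam163b, Akr7a3 and Hbegf were 591, 1000 and 3715 in rank. The 4 least alike were Aifm2 (-0.76), Cd151 (-0.75), Igfbpl1 (-0.72) and Stc1 (-0.72).

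Genes of the lists that stood high in that ranking, named here after their values were seen, were the platelet chemokine Ppbp (rank 9), Nfe2 (rank 13), Kel (rank 17) and the neutrophil protein S100a9 (rank 22). Their lists did not stand high as a whole. The platelet genes Pf4, Gp9 and Treml1 were 1771, 6109 and 8789 in rank, and the neutrophil gene Csf3r was 1672. Klf3, listed with Nfe2, was 7072 in rank, and Stom, listed with Kel, was 10796. Ppbp read -2.81, -2.75 and -2.63 in OVX pools, against -3.35, -2.91 and -3.61 in sham female pools. It read -2.81, -3.07, -3.43 and -3.05 in OOX pools, against -2.25, -3.02, -3.44 and -2.84 in sham male pools. As in Alas2, pool 3 was the lowest of the OOX, sham male and sham female groups.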

How the data were processed

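Pools of CP RNA were hybridized to 1-colour (Cy3) Agilent arrays. The deposited scanner files hold spot intensity that the authors' software, Agilent Feature Extraction 10.5.1.1, had corrected for background and spatial trend, without scaling between arrays. The deposited value table holds log2 values made by the authors with BRB-ArrayTools and served only as an alternative: each column differed from the scanner signal by 1 constant for 99.0% to 99.4% of probes within 0.01, and the column medians were 7.59 to 7.88. Control and outlier spots (222 to 877 per array) were left out, saturated spots (425 to 851) kept, spots of a probe averaged, log2 taken and the array median subtracted. Of 30367 rat probes, 18004 took names through RefSeq (GRCr8, names only; the arrays were annotated on rn4), and 12363 stayed unnamed and were tested too. The test was limma 3.58.1 (R 4.3.3), run within each sex and, for the difference between the sexes, over 14 arrays, with Benjamini-Hochberg adjustment over all features. The fit was tested on simulated data. Python 3.11.15, numpy 2.4.6, pandas 2.3.3 and scipy 1.17.1 served for the rest.

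The members and lists were chosen with earlier results of these data known. Named are all members and globins, at most 3 genes of any other list by test statistic, and the 8 most and 4 least alike, except for items that are not reported here. Alternatives changed the scaling (75th percentile, quantiles, the value table), the background correction (normexp with an offset of 50, on median signals, chosen after seeing the data), the filters on dim, outlier and saturated spots, the probe, the fit (all groups together, blocks, array weights, the methods' t-test) and the pools.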

Additional observations from a re-analysis of the deposited data

Results flagged for a closer look

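Within groups of 4 pools, the gap of the lowest or highest pool to its nearest neighbour was compared with the whole range of the group, for 12 groups of the unsaturated probes. In 1 of them the gap was above Dixon's critical value of 0.829: Alas2 in OOX males, where pool 3, at 3.02, lay apart from 3.98, 4.05 and 4.12 in the others, with a gap of 0.870 of the range. Chance flags about 1 in 20 such groups. Without that pool the log2 difference of Alas2 between OOX and sham males was 0.053, against -0.20 with it. Neither was called.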

How the results depend on the processing

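No member was called in any comparison under any alternative. Of 352 alternative values of the 15 member differences, 339 kept direction and, where tested, side of the threshold and 13 reversed in sign. In OVX against sham females, Hbb was -0.0077 with scan day as a block and within scan day 1, against 0.31. In OOX against sham males, Epb42, at 0.023, was -0.25 with quantile normalization, -0.23 with normexp (limma adjusted p = 0.228) and -0.011 with array weights. Leaving out 1 pool at a time moved Epb42 from -0.23 to 0.19, Alas2 from -0.50 to 0.053 (above 0 without OOX pool 3) and Slc4a1 from -0.57 to 0.034 (above 0 without OOX pool 3 or sham male pool 1 or 4). The cause was not tested. The smallest limma adjusted p of any alternative was 0.070, for Slc4a1 in females. Pools with the same replicate number deviated together weakly or in opposite directions (r from -0.02 to 0.14 in females and -0.31 to 0.14 in males). These values cannot settle whether the numbers pair pools, since a weak r does not exclude shared handling. With the replicate number as a block, 0 members were called in each comparison, and Alas2 gave limma adjusted p = 0.143 in females, Slc4a1 0.172 and Slc25a37 0.073. A block for scan day could not be fitted in males, all scanned on 1 day. Saturation of the brightest Hbb probe and the dim signal of Epb42 limit what either shows, as do the numbers of pools.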
